A study of Mus musculus with 21 samples.

Results

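The mouse centromere protein genes *Cenpa*, *Cenpe*, *Cenpf*, *Cenph*, *Cenpi*, *Cenpk*, *Cenpl*, *Cenpn*, *Cenpp* and *Cenpq* are described here by how much of each gene body lay inside peaks of trimethylated lysine 36 of histone H3 (H3K36me3). They are 10 of the 19300 protein-coding genes that measured 2 kb or more, listed by name and chosen by their H3K36me3 cover in these same libraries. For these 10 genes all values are therefore descriptions without a test. The samples were C2C12 cells, a mouse myoblast line that can be switched from dividing to forming muscle fibres. Wild-type (WT) cells gave 2 libraries at day 0, and 2 each at day 1 and at day 5 of differentiation, in control medium (CTL) or under methionine restriction (MR). In each of these 5 conditions, 1 further library came from each of 2 lines named as Setd2 knockouts (KO lines 1 and 2), so 20 peak lists were available. The labels give neither the kind of deletion in the KO lines nor whether a line is a single clone, and they do not say that WT replicates came from separate cultures. All p-values below therefore measure only the spread between these libraries.

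Centromere protein A is a variant of histone H3 that replaces the usual H3 in centromeric nucleosomes and so marks where a chromosome attaches to the spindle. On it sits the constitutive centromere-associated network (CCAN), built of small subcomplexes that include the proteins made from *Cenph*, *Cenpi* and *Cenpk*, from *Cenpl* and *Cenpn*, and from *Cenpp* and *Cenpq*. The outer layer that grips microtubules in mitosis includes the motor protein CENP-E and the large coiled-coil protein CENP-F. These proteins are made in dividing cells, and myoblasts leave the cell cycle when they form muscle fibres. H3K36me3 is laid down by SETD2 as RNA polymerase II moves along a gene, so it covers the bodies of transcribed genes and is usually low at their start.

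On GRCm38, the build given in the submitters' processing notes, the shortest of the 10 gene bodies was *Cenpa* at chr5:30666877-30674837 (7.96 kb, plus strand). The longest was *Cenpp* at chr13:49464025-49652950 (189 kb, minus strand). The 2 outer proteins are encoded at chr3:135212563-135273540 (*Cenpe*, 61.0 kb, plus strand) and chr1:189640606-189688107 (*Cenpf*, 47.5 kb, minus strand). The CCAN genes lay at chr13:100759674-100775903 (*Cenph*, 16.2 kb, minus), chrX:134308084-134363104 (*Cenpi*, 55.02 kb, plus) and chr13:104228611-104249622 (*Cenpk*, 21.0 kb, plus). *Cenpl* was at chr1:161070767-161086724 (15.96 kb, plus), *Cenpn* at chr8:116921716-116941504 (19.8 kb, plus) and *Cenpq* at chr17:40920809-40934574 (13.8 kb, minus). The bodies of 6 of the 10 met no other gene in the RefSeq table. *Cenpn* lay wholly (100%) inside *Cmc2*, and 42.9% of the *Cenpp* body was shared with *Ippk*, *Tes3-ps*, *Ecm2*, *Aspn*, *Omd* and *Ogn*. *Glyatl3* took 16.3% of *Cenpq*, and *Ppwd1* took 1.11% of *Cenpk*. A peak carries no strand, so within a shared stretch it cannot be assigned to either gene.

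The start regions of 3 of these genes are shown because their gene bodies differed most between the media at day 1, *Cenpa* with less cover under restriction and *Cenpq* and *Cenpk* with more. Each is the RefSeq window on GRCm38.p6 from 250 bases before to 50 bases after the transcription start, 5′ to 3′ on the gene's strand, at chr5:30666636-30666935, chr17:40934525-40934824 and chr13:104228361-104228660 in this order. Capitals mark CCAAT boxes (CCAAT, or ATTGG on the other strand) and, in *Cenpa*, a cell cycle genes homology region (CHR), an element known from genes that are switched off when cells stop dividing.
Cenpa: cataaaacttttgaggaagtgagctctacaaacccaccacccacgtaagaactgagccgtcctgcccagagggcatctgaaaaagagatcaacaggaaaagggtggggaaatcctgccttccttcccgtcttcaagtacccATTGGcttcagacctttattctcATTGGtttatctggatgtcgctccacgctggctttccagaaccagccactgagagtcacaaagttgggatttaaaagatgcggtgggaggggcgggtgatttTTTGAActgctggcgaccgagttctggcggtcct
Cenpq: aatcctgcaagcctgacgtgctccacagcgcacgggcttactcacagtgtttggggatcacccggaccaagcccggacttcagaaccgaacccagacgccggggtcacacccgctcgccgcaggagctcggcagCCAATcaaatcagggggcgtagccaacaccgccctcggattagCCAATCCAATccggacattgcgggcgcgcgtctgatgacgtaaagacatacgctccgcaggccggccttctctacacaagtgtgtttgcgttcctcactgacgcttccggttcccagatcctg
Cenpk: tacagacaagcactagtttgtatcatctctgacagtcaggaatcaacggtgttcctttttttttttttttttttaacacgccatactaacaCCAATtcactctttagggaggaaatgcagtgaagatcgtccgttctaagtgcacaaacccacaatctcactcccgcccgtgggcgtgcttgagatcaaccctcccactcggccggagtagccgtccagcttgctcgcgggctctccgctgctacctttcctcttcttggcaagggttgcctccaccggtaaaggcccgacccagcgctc

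The 3 kinds of letter pattern were searched on both strands in the windows of all 10 genes, of which the one for *Cenpk* was the first of 3 in the table. CCAAT was found in 9 of the 10, all but *Cenpp*, and in 37.4% of all 32851 RefSeq promoter windows. The CHR letters (TTTGAA or TTCGAA) were found in 4 of the 10 (*Cenpa*, *Cenpf*, *Cenpl* and *Cenpn*) and in 19.2% of all windows. An E2F pattern (TTTCCCGC, TTTGGCGC, TTTCGCGC or TTTGCCGC) was found in *Cenpl* alone and in 2.26% of all windows. No searched pattern is contained in another. No peak reached any of these 10 windows in any of the 10 WT libraries.

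Across the series, WT lists held 63423 to 87398 peaks covering 110 to 183 Mb, KO line 1 covered 0.307 to 74.1 Mb and KO line 2 covered 0.00821 to 7.13 Mb. Peak lists carry no read number, so the depth is unknown, and a short list can reflect few reads as well as little mark. The muscle marker *Des* had 86.5% of its body in peaks at day 0 (n = 2) and *Myod1* had 52.6%, while the myoblast genes *Myf5* and *Pax7* had only 11.9% and 3.88%. The leukocyte, endothelial and epithelial genes *Ptprc*, *Pecam1* and *Epcam* were listed at 0 in all WT libraries. *Myog*, which myoblasts switch on as they differentiate, was listed at 0 at day 0 and had mean cover of 71.9% and 92.6% at days 1 and 5 in control medium, against 0 at both days under restriction. Other differentiation markers, *Myh3*, *Mymk*, *Acta1* and *Ckm*, had means of 57.3%, 24.1%, 8.7% and 7.53% under restriction at day 5. In control medium at day 5 they had 93.1%, 82.4%, 93.1% and 69.8%. The *Setd2* body had mean cover of 49.2% to 80.6% in the 5 WT conditions, 0 in all 5 libraries of KO line 2 and 0 to 24.0% in those of KO line 1, the highest at day 5 in control medium. Peaks over the gene show the mark there, not whether the gene was deleted, so they do not check the KO label.

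Dividing WT myoblasts at day 0 carried H3K36me3 peaks over most of these gene bodies, and by day 5 little of that cover was left. The median of the 10 group means was 66.3% at day 0, 48.7% at day 1 and 7.12% in control medium at day 5. Over all 9512 genes tested (mean cover of at least 5% over the WT libraries, which all 10 genes passed) the medians were 55.2%, 46.9% and 52.7%. Both libraries reached 50% cover for 6 of the 10 genes at day 0, for 5 in control medium at day 1 and for none at day 5. The share of all genes tested that reached 50% was not worked out, so these counts do not set the 10 genes apart. The day 5 libraries of control medium lay below both day 0 libraries for 9 of the 10 genes, as they did for 36.1% of all genes tested, and for *Cenpp* they overlapped. With lists trimmed to the same covered length, 7 of the 10 were lower (31.6% of all genes), and the differences were 0 for *Cenph* and *Cenpq*, -3.41 points for *Cenpi* and -6.38 points for *Cenpk*. Because the cells were measured in bulk, fewer cells carrying the mark and a shorter marked stretch per cell cannot be told apart.

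**Figure D1:**
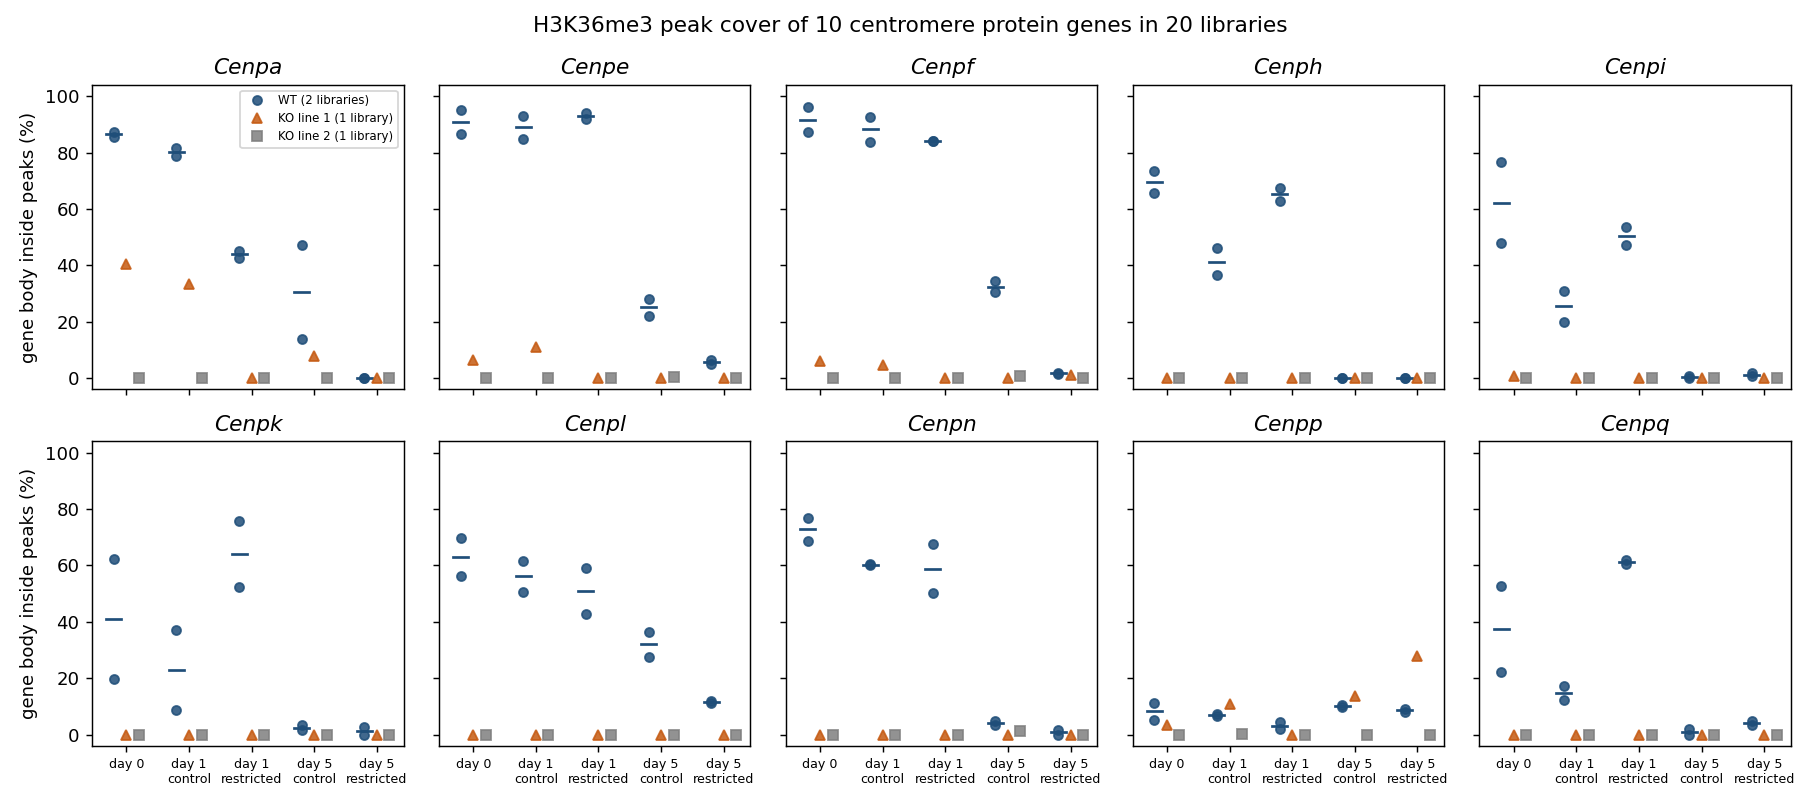
Percent of each gene body inside H3K36me3 peaks (vertical axis) for the 10 centromere protein genes in the 5 conditions (horizontal axis). Circles are single WT libraries, with a bar at the mean of 2, triangles are KO line 1 and squares are KO line 2 (1 library each). All genes but *Cenpp* have their WT circles at day 5 below those at day 0, and the triangles of *Cenpa* stand at 40.3% and 33.3% at day 0 and day 1 in control medium.

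The histone variant gene *Cenpa* had cover of 85.6% and 87.2% at day 0, 78.8% and 81.5% in control medium at day 1, 45.2% and 42.6% at day 1 under restriction, 47.2% and 13.8% in control medium at day 5, and 0 in both restricted libraries at day 5. Restricted libraries lay below control libraries on both days, with differences of -36.3 points at day 1 and -30.5 points at day 5, where the control pair itself spread widely. The loss at day 1 was from the 5′ side. Of 3 equal parts of the body, the 3′ part was covered to 100% in both media. The middle part was covered to 100% in control medium and to 31.6% ± 5.49 under restriction (SD, n = 2), and the 5′ part to 40.5% ± 5.65 (SD, n = 2) and to 0. At day 0 the peak already began inside the gene, with 59.2% ± 3.36 of the 5′ part covered (SD, n = 2).

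*Cenpa* met a single peak in each day 0 and day 1 control library, of which 6.28 to 6.94 kb lay inside the gene body. This and the other block lengths given here count only the stretch within the gene. By the authors' fold enrichment that peak ranked above 97.1% to 98.8% of the peaks in its own list. The longest block under restriction at day 1 was 3.60 and 2.72 kb, and the best peak there still ranked above 94.2% and 93.6% of its list. At day 5 in control medium the cover was broken into 5 and 2 peaks, with longest blocks of 1.45 and 0.616 kb. The position of its cover, late in the body under restriction, is visible in the maps along the gene bodies.

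*Cenpe* and *Cenpf* had mean cover of 84.1% to 92.9% at day 0 and at day 1 in both media. *Cenpe*, the gene of the kinesin that carries chromosomes to the spindle equator, had cover of 95.2% and 86.7% at day 0, 84.9% and 93.0% in control medium at day 1, and 94.1% and 91.7% at day 1 under restriction. At day 5 it had 22.1% and 27.9% in control medium and 6.49% and 4.83% under restriction. The day 1 media overlapped, and at day 5 all restricted libraries were below the control libraries, with a difference of -19.4 points.

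*Cenpf* had a like course, with 96.2% and 87.2% at day 0, 83.9% and 92.7% in control medium at day 1, and 84.0% and 84.3% at day 1 under restriction. At day 5 it had 34.3% and 30.4% in control medium, and 1.79% and 1.48% under restriction, a difference of -30.7 points without overlap, which was 0 with peaks of a −log10 q of 3 or more. In the restricted day 1 lists, the best peaks of *Cenpe* ranked above 99.9% and 99.7% of all peaks by the authors' fold enrichment, and those of *Cenpf* above 99.3% and 99.4%. Blocks of up to 45.2 kb on *Cenpe* at day 0 gave way to 20 and 23 peaks in control medium at day 5, with longest blocks of 1.68 and 2.23 kb.

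**Figure D2:**
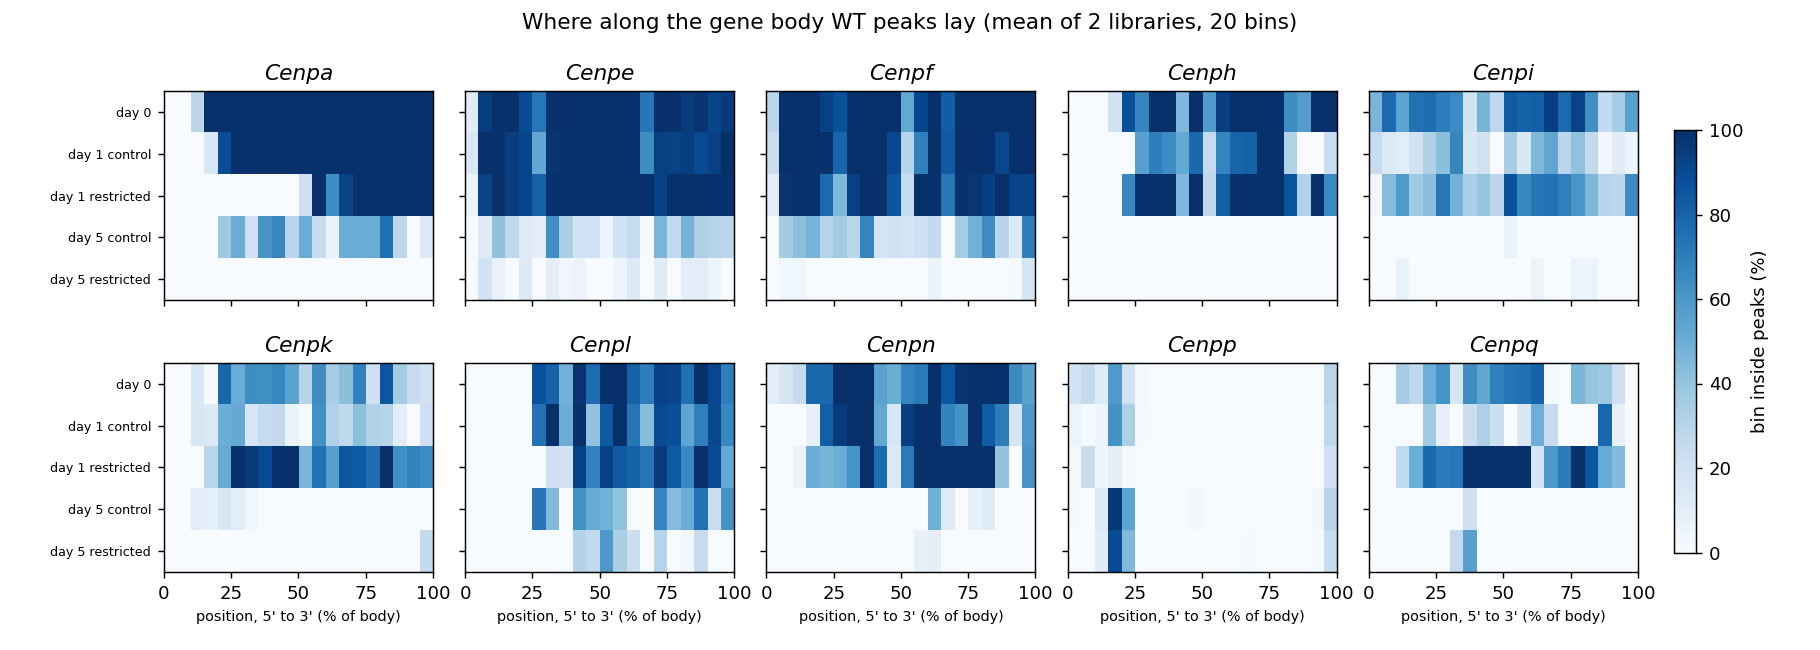
Where the WT peaks lay along each gene body, from the 5′ to the 3′ end in 20 equal bins (horizontal axis, percent of the body), in the 5 WT conditions (rows), with darker blue for a higher percent of the bin inside peaks (mean of 2 libraries). At day 1 under restriction *Cenpa* keeps its 3′ part and 31.6% of its middle part, and *Cenpk* and *Cenpq* are darker there than in control medium. *Cenpp* then has little cover, with a mean of 6.0% in its 5′ part and 3.12% in its 3′ part.

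The H, I and K subunit genes of the CCAN had more cover at day 1 under restriction than in control medium. *Cenph* had 73.5% and 65.7% at day 0, 46.0% and 36.5% in control medium at day 1, 62.9% and 67.3% at day 1 under restriction, and 0 in all 4 WT libraries of day 5. *Cenpi*, on the X chromosome, had 76.7% and 47.8% at day 0, 19.98% and 30.9% in control medium at day 1, 53.6% and 47.2% under restriction, and between 0 and 1.82% at day 5. Both genes had restricted libraries above both control libraries at day 1, by 23.9 points for *Cenph* and by 24.9 points for *Cenpi*.

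*Cenpk* varied most between replicates, with 62.2% and 19.5% at day 0 and 8.87% and 37.2% in control medium at day 1. Under restriction at day 1 it had 75.9% and 52.5%, both above all of the control values, and at day 5 it had 3.32% and 1.53% in control medium and 0 and 2.57% under restriction. The day 1 difference was 41.1 points, and it was 29.5 to 52.8 points without either restricted library and 27.0 to 55.3 points without either control library.

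Among the other CCAN genes, *Cenpq* had the largest difference between media at day 1. Its cover was 52.9% and 22.1% at day 0, 12.4% and 17.1% in control medium at day 1, 60.6% and 62.0% at day 1 under restriction, 0 and 2.10% in control medium at day 5, and 4.81% and 3.40% at day 5 under restriction. The restricted libraries lay above the control libraries on both days, by 46.5 points at day 1 and by 3.06 points at day 5. At day 1 they also lay above both day 0 libraries, by 23.8 points on average. The gain at day 1 spanned the body, from a mean of 6.57% to 39.5% in its 5′ part, from 23.7% to 85.2% in the middle part and from 14.001% to 59.1% in the 3′ part. The longest block on *Cenpq* was 0.761 and 0.777 kb in the control lists and 3.78 and 5.33 kb in the restricted lists.

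Ranked over all 9512 genes tested, the day 1 differences of *Cenpq* and *Cenpk* were the first and second highest, and those of *Cenpi* and *Cenph* stood at ranks 22 and 26. Much of this cover came from weakly called peaks. Counting only peaks with a −log10 q of 3 or more, the day 1 difference was 2.23 points for *Cenpq*, 8.59 points for *Cenpk* and 11.4 points for *Cenpi*, against 27.9 points for *Cenph*. With all WT lists trimmed to the same covered length, the differences were 52.8, 62.6, 37.1 and 64.2 points for *Cenpq*, *Cenpk*, *Cenpi* and *Cenph*. That length (110 Mb) was that of restricted replicate 2 of day 1, which was left whole. The control lists of day 1 (140 and 150 Mb) were cut most, so trimming took more from the control side of these differences. The direction of these 4 genes was the same in every alternative run. Centring on the library median raised the day 1 difference of every gene, so it could not have turned them.

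*Cenpl* and *Cenpn*, whose products form the subcomplex that touches the CENP-A nucleosome, did not separate the media at day 1. *Cenpl* had 69.9% and 56.2% at day 0, 50.6% and 61.6% in control medium at day 1, 59.0% and 42.7% under restriction, 27.5% and 36.5% in control medium at day 5, and 11.7% and 11.2% at day 5 under restriction. Within *Cenpl*, the 5′ part had a mean of 21.1% in control medium and 0.555% under restriction at day 1, while the 3′ part had 70.2% and 79.0%. At day 5 the restricted libraries of *Cenpl* lay below the control libraries, with a difference of -20.5 points.

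*Cenpn* had 68.8% and 76.9% at day 0, 60.1% and 60.5% in control medium at day 1, 67.7% and 50.1% under restriction, and at most 4.63% at day 5. The rest of its host gene *Cmc2*, 35.8 kb outside *Cenpn*, had mean cover of 27.6% at day 0, 17.8% at day 1 and 12.6% in control medium at day 5, below the 72.8%, 60.3% and 4.08% of *Cenpn* on the first 2 of these days and above it at day 5. Over its own bases, which no other gene overlaps, *Cmc2* fell by 15.4 points between day 0 and day 5 in control medium (limma, adjusted p = 0.0235).

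*Cenpp* stood apart from the other 9 genes. Its cover was 11.3% and 5.14% at day 0, 6.42% and 7.17% in control medium at day 1, 4.31% and 1.79% under restriction, 10.5% and 9.82% in control medium at day 5, and 8.14% and 9.13% under restriction. Most of it lay in the 5′ part of the body, where the minus-strand *Cenpp* overlaps *Ogn*, the gene of the matrix proteoglycan osteoglycin. Within the stretch of 77.7 kb that holds *Ecm2*, *Aspn*, *Omd* and *Ogn*, the mean cover of day 0 was 9.34%, that of day 1 was 11.6% in control and 1.40% in restricted medium, and that of day 5 was 18.6% and 16.5%. In the 108 kb that no other gene overlaps, it was 7.18%, 3.13%, 4.09%, 3.86% and 2.74% in the same order.

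Cover of *Ogn* itself was 65.3% and 22.8% at day 0, 47.4% and 61.6% in control medium at day 1, 11.4% and 1.75% under restriction, 85.6% and 87.1% in control medium at day 5, and 72.2% and 81.1% at day 5 under restriction. Because *Ogn* lies wholly inside *Cenpp*, its values are given without a test. Both restricted libraries of day 1 lay below both control libraries, with a difference of -47.9 points. With peaks of a −log10 q of 3 or more that difference was 0, and with lists of the same covered length it turned to 0.476 points. The day 1 difference of *Cenpp* under restriction, -3.74 points, became 0.962 points over the bases of *Cenpp* alone.

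Set against control medium, restriction at day 1 thus left 4 genes with higher cover in both libraries (*Cenph*, *Cenpi*, *Cenpk* and *Cenpq*), which 10.8% of all genes tested also showed. It left 2 with lower cover in both (*Cenpa* and *Cenpp*), as for 59.7% of all genes, and 4 that overlapped. The median difference was 1.29 points for the 10 genes and -7.99 points for all genes tested. With cover centred on each library's median, 9 of the 10 genes were higher and *Cenpa* was lower, as were 55.9% and 22.2% of all genes tested. Centring turned the median difference of all genes from -7.99 to 7.20 points, so it raised every gene alike and overshot the general shift. At day 5, 6 genes were lower without overlap under restriction (65.4% of all genes), *Cenpq* was higher (13.9%) and 3 overlapped, with medians of -2.36 and -9.15 points. Centring turned that split to 6 higher and 1 lower (58% and 24.9% of all genes, with a median of 7.53 points for all). Trimming the lists to 1 covered length left 1 gene, lower (31.2% of all genes were higher and 39.2% lower). The day 5 differences were then 0 for *Cenpa*, *Cenpf* and *Cenpl* and -0.176 points for *Cenpe*, and with a −log10 q of 3 or more they were -3.34, 0, -7.96 and -1.50 points.

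Between day 0 and day 1 in control medium, both day 1 libraries were lower for 5 genes, against 49.3% of all genes tested. The differences were -36.8 points for *Cenpi*, -28.3 for *Cenph*, -22.8 for *Cenpq*, -12.5 for *Cenpn* and -6.23 for *Cenpa*, of which the last turned to 2.25 with centring. With lists of 1 covered length the differences were 0.927 for *Cenph*, 0 for *Cenpq* and -0.312 for *Cenpi*. None was higher, against 5.71% of all genes. This comparison and that of the media at day 1 share the control libraries of day 1, so a low value there lowers the first and raises the second. Restricted libraries at day 5 lay below day 0 for the same 9 genes as in control medium (64.1% of all genes tested), with a median of -65.3 points for the 10 genes and -9.84 points for all.

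The other genes of the kinetochore are not among the 10 and were tested. A list of 46 was used, of which 43 had enough cover. It was drawn up with earlier results of these data known, so its counts are not independent evidence of a direction. Between day 0 and day 5 in control medium 37 of the 43 fell and none rose (limma, adjusted p under 0.05 over all 9512 genes; 15.6% of all genes tested fell and 12.2% rose). At an unadjusted p under 0.05 the same count of 37 was reached. Their median difference was -45.2 points, against -1.17 points for all genes. By role, 6 of 9 further CENP genes fell, 2 of 3 genes that load CENP-A, 9 of 10 outer kinetochore genes, 6 of 6 inner centromere genes and 14 of 15 checkpoint and microtubule genes. The further CENP genes were listed by name, and *Cenpj*, 1 of the 6, encodes a protein of centrioles rather than of the kinetochore.

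Of the outer kinetochore, *Ndc80*, whose product binds microtubules directly, had 94.4% and 92.3% at day 0 and 9.02% and 15.6% in control medium at day 5, and fell by 81.0 points (SE 4.54, limma, adjusted p = 5.72e-06, range over the alternatives 2.76e-06 to 0.0036). *Nsl1*, of the MIS12 complex, went from 88.7% and 88.3% to 3.77% and 6.95% and fell by 83.1 points (SE 5.49, limma, adjusted p = 1.4e-05). *Kntc1* and *Spdl1*, which serve the checkpoint and dynein at the kinetochore, and *Dsn1*, also of the MIS12 complex, had differences of -80.5, -75.4 and -72.6 points (limma, adjusted p = 5.87e-06, 2.33e-05 and 5.5e-06). The 6 tested genes that were not called were *Cenpw*, *Oip5*, *Cenpc1*, *Bub3*, *Cenpt* and *Mis12*, named here after their values were seen. *Cenpt*, a CCAN gene, had 52.6% and 57.7% at day 0 and 53.6% and 52.3% at day 5, and *Cenpc1*, which ties the CENP-A nucleosome to the outer layer, had 79.5% and 47.0% at day 0 and 51.1% and 55.3% at day 5.

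**Figure D3:**
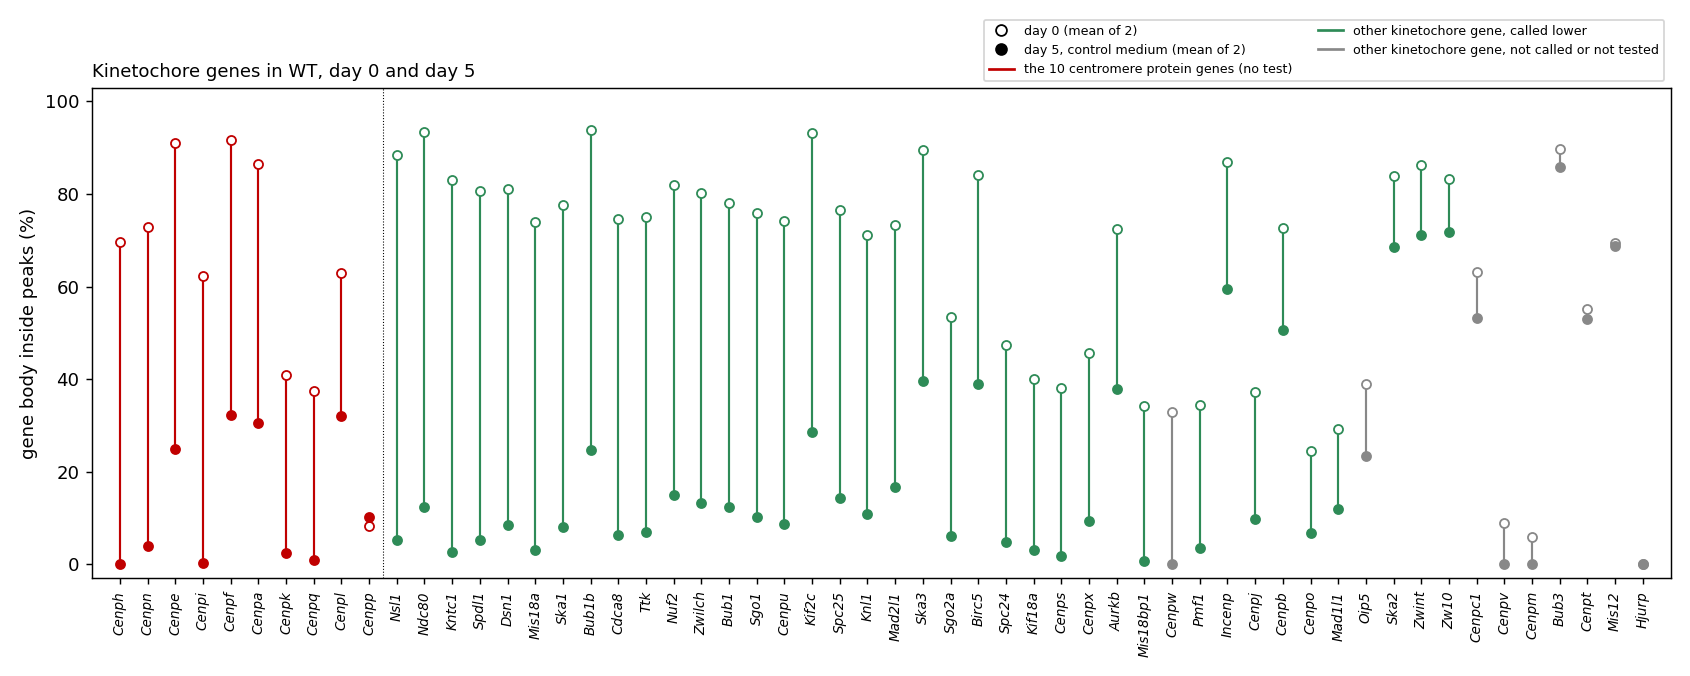
Mean percent of the gene body inside peaks (vertical axis) in WT cells at day 0 (open circles) and day 5 in control medium (filled circles) for the 10 centromere protein genes (red, left of the dotted line, no test) and the 46 other kinetochore genes (horizontal axis), means of 2 libraries. Green genes were called lower (37 of 43 tested), and grey ones were not called or not tested. Of the red genes, only *Cenpp* has its filled circle above the open one.

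Under restriction at day 1, 5 of these 43 genes rose and 8 fell (limma, 2.38% and 36% of all genes tested). *Cenpu*, the CCAN gene whose product joins those of *Cenpp* and *Cenpq* in a subcomplex, rose most. It had 43.7% and 47.5% in control medium and 72.2% and 65.6% under restriction, a rise of 23.3 points (SE 4.44, limma, adjusted p = 0.00401, range over the alternatives 0.000396 to 0.251). The other 4 were the checkpoint kinase gene *Ttk* (21.8 points), *Spdl1* (16.5), *Kntc1* (15.04) and *Dsn1* (13.3), with limma adjusted p-values of 0.0289, 0.0443, 0.0308 and 0.0324, which some alternatives raised to as much as 0.168, 0.26, 0.17 and 0.471. With gaps of up to 1 kb merged, none of the 43 was called higher and 7 were called lower (1.91% and 32.3% of all genes). Without control replicate 1 of day 1, 1 was higher and 6 were lower (0.746% and 26.1%), and without restricted replicate 1 of day 1, 1 was higher and 7 were lower (0.873% and 35.6%). Centring on the library median gave 27 higher and 3 lower, when 37% and 13.1% of all genes were called higher and lower.

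The largest fall at day 1 was that of *Cenpb*, which encodes a protein binding a repeat in centromeric DNA. It had 64.0% and 59.7% in control medium and 5.68% and 0 under restriction, and fell by 59.0 points (SE 5.6, limma, adjusted p = 0.00014, range over the alternatives 0.00015 to 0.0239). *Spc24*, *Ska2*, *Bub3* and *Zwint* also fell, with differences of -30.6, -27.4, -24.9 and -20.8 points (limma, adjusted p = 0.000359, 0.00227, 0.00118 and 0.00414). Over the alternatives their adjusted p reached at most 1, 0.017, 0.0535 and 0.211 (limma), so the calls of *Spc24*, *Bub3* and *Zwint* were lost in some settings and that of *Ska2* in none. At day 5, none rose and 9 fell under restriction (limma, 4.32% and 41.5% of all genes tested, with 12 of the 43 at an unadjusted p under 0.05). They included *Cenpb* (-50.5 points), the chromosomal passenger genes *Aurkb* (-38.0) and *Birc5* (-34.6), *Mis12* (-28.7) and the microtubule depolymerase gene *Kif2c* (-25.7) (limma, adjusted p = 0.000216, 0.000706, 0.00056, 0.00349 and 0.00128). Each of these 5 was lost in some setting, with limma adjusted p-values of up to 0.207, 1, 0.505, 0.985 and 0.913. The count moved too: 3 genes fell with peaks of a −log10 q of 3 or more (27.9% of all genes), and with lists of 1 covered length 3 were higher and 1 was lower (17% and 24.8%). Centring gave 14 higher and 4 lower (39.6% and 14.7%), and a fit of the compared libraries alone gave 2 higher and 18 lower (5.78% and 45.4%).

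Between day 0 and day 1 in control medium 7 of the 43 fell and none rose (limma, 5.65% and 0.967% of all genes tested, 20 of the 43 at an unadjusted p under 0.05). Differences were -33.5 points for *Dsn1*, -28.5 for *Cenpu*, -27.6 for *Cenpx*, -25.6 for *Spdl1* and -24.7 for *Ska1* (limma, adjusted p = 0.00416, 0.0109, 0.0111, 0.0332 and 0.0181), and each was lost in some setting (up to 0.168, 0.822, 1, 0.188 and 0.235). Without either control library of day 1 the count was 1 (1.11% and 1.07% of all genes fell), without day 0 replicate 2 it was 12 (9.59%), and without either restricted library of day 5 it was 4 (2.92% and 2.94%).

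For the difference of the restriction effect between day 5 and day 1, 1 of the 43 genes (*Spc24*) was called higher and none lower (limma, 1.62% and 3.58% of all genes tested, with 16 of the 43 at an unadjusted p under 0.05).

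Gene length went with the day 1 difference between the media. Across the 43 kinetochore genes Spearman's rho of difference with length was 0.689, and across all 9512 genes it was 0.409, given as descriptions over genes that share libraries. Kinetochore genes under 10 kb had a median of -15.9 points (n = 11) and longer ones 3.36 points (n = 32), against -20.0 and -5.63 points for all genes. Of the 10 centromere protein genes only *Cenpa* was under 10 kb, and it had the lowest difference, while rho over the 10 was 0.127. The part of length in the difference between *Cenpa* and the CCAN genes was not tested.

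**Figure D4:**
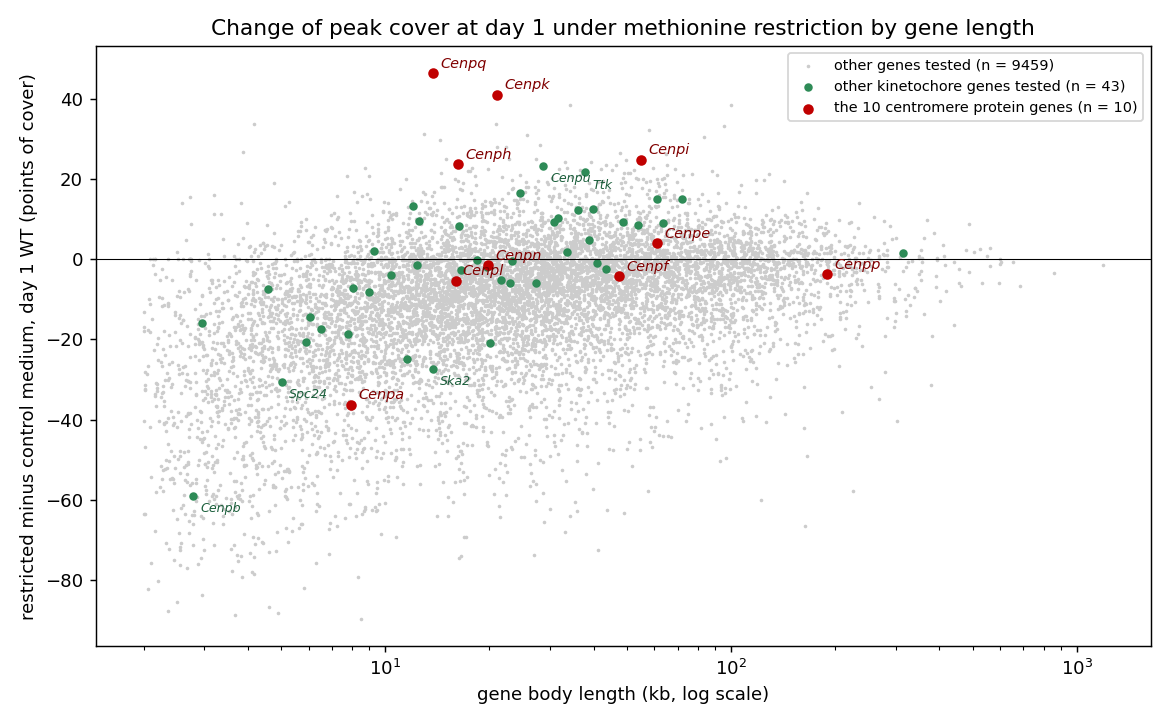
Difference in cover between restricted and control medium at day 1 in WT cells (vertical axis, percentage points, means of 2 libraries) against gene body length (horizontal axis, kb, log scale). Grey points are 9459 other genes tested, green ones 43 other kinetochore genes and red ones the 10 centromere protein genes. *Cenpq* (46.5) and *Cenpk* (41.1) lie above all other points, and short genes reach lower values than long ones.

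Neighbouring genes were examined because a peak can run over a gene boundary. *Mmut*, the methylmalonyl-CoA mutase gene that starts 110 bp from *Cenpq*, had 8.15% and 13.8% in control medium at day 1 and 34.7% and 37.7% under restriction. It rose by 25.2 points (SE 4.75, limma, adjusted p = 0.0039, range over the alternatives 0.00028 to 0.0328), and at day 5 by 24.0 points (SE 4.75, adjusted p = 0.00401, range 0.000176 to 0.0323). Unlike *Cenpq*, *Mmut* had cover in every WT library of day 5, 17.1% to 48.0%, while *Cenpq* had at most 4.81% there.

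Beside *Cenph*, at 2.83 kb, the mitotic cyclin gene *Ccnb1* had 84.7% and 86.5% in control medium at day 1 and 50.7% and 28.6% under restriction. It fell by 45.9 points (SE 6.88, limma, adjusted p = 0.00128, range over the alternatives 0.000274 to 0.0111), whereas *Cenph* had more cover under restriction. From day 0 to day 5 *Ccnb1* fell by 51.3 points (SE 6.88, limma, adjusted p = 0.000753, range over the alternatives 0.000182 to 0.0107). *Nol8*, which lies 127 bp from *Cenpp*, had mean cover between 64.5% and 90.3% in all 5 WT conditions, and none of its contrasts was called.

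In the KO lines 17 of the 100 values (10 genes in 10 libraries) were above 0, and 5 of them with peaks of a −log10 q of 3 or more. Line 1 at day 0 had cover on *Cenpa* (40.3%), *Cenpe* (6.23%), *Cenpf* (6.04%), *Cenpp* (3.25%) and *Cenpi* (0.562%), while 46.9% of all genes tested had some. The day 1 control library of line 1, in which 35.6% of all genes had cover, had *Cenpa* at 33.3%, *Cenpe* at 10.8%, *Cenpp* at 10.7% and *Cenpf* at 4.62%. At these times *Cenpa* was covered more than 98.2% and 98.3% of the 19300 protein-coding genes of 2 kb or more in the same library. That set is wider than the genes tested and includes those with little or no cover. On *Cenpa* the remaining cover lay toward the 3′ end, at 91.0% of the 3′ part and 0 of the 5′ part at day 0.

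Line 1 at day 1 under restriction had none of the 10 genes in peaks, in a list of 791 peaks that touched 2.43% of all genes tested. At day 5 it had *Cenpa* at 7.85% and *Cenpp* at 13.6% in control medium, and *Cenpp* at 27.8% and *Cenpf* at 1.01% under restriction, in libraries with cover on 71.7% and 49.6% of all genes. *Cenpp* was then above its WT values, and *Ogn* stood at 89.96% in the restricted library, with 21.3% on the bases of *Cenpp* alone. KO line 2 had cover only of 0.179% on *Cenpp* at day 1 and of at most 1.36% on *Cenpe*, *Cenpf* and *Cenpn* at day 5, all in control medium. In line 2, 1.3% of all genes tested had cover at day 0, 1.79% and 0.252% in control and restricted medium at day 1, and 13.7% and 2.6% at day 5.

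All 10 genes were below both WT libraries at day 0 in line 1 and in line 2, as were 97.3% and 97.6% of all genes tested. At day 1 in control medium this held for 9 genes in line 1 and 10 in line 2 (96.9% and 97.4% of all genes), and at day 1 under restriction for all 10 in each line (90.2% and 90.3%). At day 5 in control medium it held for 6 and 7 (89.1% and 97.4%), and under restriction for 5 and 6 (82.8% and 92.4%). A gene at 0 in a WT library cannot lie below it, so at day 5 only 7 of the 10 genes in control medium (all but *Cenph*, *Cenpi* and *Cenpq*) and 6 under restriction (all but *Cenpa*, *Cenph*, *Cenpk* and *Cenpn*) could be lower. The line 2 counts stood at these limits, and line 1 missed them by *Cenpp* alone. Of all genes tested that had cover in both WT libraries, 91.5% and 89.7% were lower in line 1 in control and restricted medium at day 5. In line 2 these shares were 99.9% and 100%. With 1 library per line and condition these values have no replicate check.

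Over the 10 WT libraries, the genes whose cover correlated best with the median of the 10 were *Rbl1* (Pearson's r = 0.996), *Nefm* (0.994), *Zwilch* (0.994), *Kif15* (0.993) and *Melk* (0.992). *Zwilch* belongs to the checkpoint complex at the kinetochore and *Kif15* is a spindle kinesin, while *Nefm* encodes a neurofilament. For *Cenpq* the genes most alike included *Alms1* (0.979), *Polq* (0.958), *0610010F05Rik* (0.956) and *Vrk2* (0.956). The 10 libraries share their 5 conditions, so these coefficients describe likeness and carry no p.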

How the data were processed

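H3K36me3 ChIP-seq was read with 75 nt single-end reads and a Drosophila chromatin spike-in, per the labels' protocols. The deposited files were 20 broad-peak lists, 1 per library, so replicates were called separately. The build is GRCm38, per the submitters' processing notes. The peak caller, its control and filters, and any use of the spike-in are not given in the sources used here. The fold enrichment (ratio) of a peak is the authors' and served only to rank the peaks of 1 library. Each deposited −log10 p and −log10 q is also the authors', and the lowest −log10 q was 1.0. The deposited score column was not used. The input was not analysed here.

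Peaks that overlapped or touched were merged, and cover is the percent of a RefSeq GRCm38.p6 gene body inside them. It measures where peaks were called, not the amount of the mark. Depth per library is unknown, so no counting interval is given. Strand and promoter sequences came from the RefSeq promoter table. The 10 centromere protein genes, the kinetochore list and the tests were chosen with earlier results of these data known. Genes outside the 10 were tested on cover with limma 3.58.1 (lmFit, eBayes with trend and robust, R 4.3.3) over 9512 genes and 10 WT libraries in 5 groups with a common variance estimate, with Benjamini-Hochberg adjustment and calls under 0.05. The named genes are the 10, every overlapping gene and nearest coding neighbour (not all are given in the text), up to 5 called kinetochore genes per direction and contrast with the largest difference and no overlap of libraries, and the 5 genes most alike by Pearson's r. Some genes that this rule names are not reported here. Interval sums were checked base by base on 200 simulated sets, with 0 mismatches. On simulated data for the day 1 media contrast, over 9512 genes, limma recovered 47.5% of 200 genes shifted by 30 points, and 3.06% of its calls were false. The shifted genes were drawn from those of middling mean cover, and noise was drawn alike for all groups. These rates therefore do not cover genes with little cover or groups of unequal spread. Alternatives were a −log10 q of 3 or more, lists trimmed to 110 Mb, gaps of up to 1 kb merged, bases of 1 gene only, centring, no filter, the compared libraries alone, a replicate block and each replicate left out. The 110 Mb were the covered length of the shortest WT list, restricted replicate 2 of day 1. Python 3.11.15 was used for the rest.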

Additional observations from a re-analysis of the deposited data

Results flagged for a closer look

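*Spc24*, of the NDC80 complex, was the 1 gene of the 43 kinetochore genes tested that was called for a difference of the restriction effect between day 5 and day 1. Genes that were not called are not shown to have had the same effect on both days. The difference of differences of *Spc24* was 25.7 points (SE 5.005, limma, adjusted p = 0.0228, range over the alternatives 0.00959 to 1). At day 1 this gene had 31.3% and 29.9% in control medium and 0 in both restricted libraries. At day 5 it had 0 and 9.71% in control medium and 0 in both restricted libraries. Whether the low cover of day 5 accounts for the difference was not tested. Over all genes tested 1.62% were called higher and 3.58% lower for this difference, and 16 of the 43 kinetochore genes had an unadjusted p under 0.05.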

How the results depend on the processing

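The fall of the kinetochore genes between day 0 and day 5 stayed within 1.5 times its count of 37 under every alternative (27 to 38). Of the centromere protein genes 9 were lower without overlap there (36.1% of all genes tested). The count was 7 with lists of 1 covered length (31.6%), 10 without day 0 replicate 2 (share not worked out) and 9 in the other settings. The other counts moved. The 13 kinetochore calls between the media at day 1 became 30 with centring, 7 with gaps merged and 7 to 15 over the settings that left out a library. The 9 calls at day 5 became 3 with a −log10 q of 3 or more, 18 with centring, 4 with lists of 1 covered length and 20 with the compared libraries alone. The 7 calls from day 0 to day 1 became 2 with centring, 3 with gaps merged, 3 with lists of 1 covered length, 0 with the compared libraries alone (limma, 18 at an unadjusted p under 0.05) and 1 to 12 without a library. The single call for the difference between days became 2, 0 (15 at an unadjusted p under 0.05), 6 and 7 with a −log10 q of 3 or more, centring, gaps merged and lists of 1 covered length, and 0 to 3 without a library (7 to 17 unadjusted where it was 0). Of the centromere protein genes, the 6 without overlap at day 1 became 10 with centring (55.9% of all genes tested were then higher and 22.2% lower). The 7 at day 5 became 3 with a −log10 q of 3 or more (18.5% and 49.1%) and 1 with lists of 1 covered length (31.2% and 39.2%). From day 0 to day 1 the 5 became 8 (3.52% and 52.3%) and 1 (15.5% and 25.8%) with the same settings, and up to 10 without a library. With a library left out, 1 library faces 2 and overlap is rarer for any gene, and the share of all genes was not worked out. The 17 values above 0 in KO lines became 5 with a −log10 q of 3 or more. Of 27 differences of centromere protein genes without overlap between libraries, 5 turned in direction: *Cenpp* at day 1 (0.215, 0.868, 0.962 and 11.4 points with a −log10 q of 3 or more, lists of 1 covered length, its own bases and centring) and at day 5 (15.2, centring), *Cenpn* at day 5 (13.5, centring), and *Cenpa* and *Cenph* from day 0 to day 1 (2.25 with centring and 0.927 with lists of 1 covered length). Of the 13 that overlapped 11 turned, such as *Cenpl* at day 1 (-13.4 to 26.9). *Mis12* at day 5 (0.756) and *Ogn* at day 1 (0.476) turned with lists of 1 covered length. Beyond what the settings do by construction, the cause was not tested. Among single kinetochore genes 379 alternative values kept their call and 88 lost it. WT replicate numbers were not taken as pairs. Over genes, the replicate differences of day 0 and of day 1 in control medium correlated at -0.439, so they ran in opposite directions, for a cause not tested. The other pairs of groups gave -0.083 to 0.062. With a replicate block the kinetochore counts were 12, 10, 6, 37 and 1 in the order of day 1 media, day 5 media, day 0 to day 1, day 0 to day 5 and the difference between days. A common shift of replicate 2 cannot take up opposite deviations. Unknown depth limits every value, since a gene at 0 may only lack reads.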

Other observations

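*Hjurp*, the chaperone that deposits CENP-A, was listed at 0 in all 10 WT libraries, and *Cenpv* and *Cenpm* also missed the minimum of mean cover. *Drp2*, next to *Cenpi* on the X chromosome, rose under restriction at day 5 by 27.1 points (SE 2.54, limma, adjusted p = 9.13e-05, range over the alternatives 5.91e-05 to 0.00349), where *Cenpi* had between 0 and 1.82% in every WT library. *Bicd2*, the nearest coding gene beyond the 3′ end of *Cenpp*, fell under restriction by 22.4 points at day 1 and by 41.3 points at day 5 (limma, adjusted p = 0.00181 and 6.63e-05, ranges over the alternatives 0.00124 to 0.18 and 7.67e-05 to 0.00204), so the day 1 call was lost in some settings.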
